A study of Rattus norvegicus with 7 samples.

Results

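The 2 keratin gene regions of the rat genome were examined in RNA from the vomeronasal epithelium. The windows were chosen by position with the CPM of these libraries already known, and the classes within them were chosen by counts and CPM in each rat. They hold the gene models of the deposited annotation (RGSC3.4) whose first base lies between 88000000 and 89400000 on chromosome 10 (type I keratin region) or between 140000000 and 140900000 on chromosome 7 (type II keratin region). This gave 80 models on chromosome 10 and 31 on chromosome 7, 111 of the 29630 models in all. The animals were 7 male rats of the inbred strain LEW/Crl, 8 weeks old, flushed of blood with heparin before dissection, and each gave 1 library. All belonged to a single group with no treatment or mutant allele in the labels, so that no condition was compared and errors are the spread among rats. The tissue is a whole epithelium, in which fewer cells of a type and less RNA per cell cannot be told apart.

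Keratins are the intermediate filament proteins of epithelial cells. A type I (acidic) keratin pairs with a type II (basic to neutral) keratin, and the filament is built from these pairs, so that epithelia express members of both families together. Different pairs are known from simple epithelia, from the basal layer of stratified epithelia, from the layers above it, and from hair and nail. In mammals each family sits in a cluster of its own, and the type I cluster encloses a block of genes for keratin-associated proteins, small proteins of the hair shaft. The vomeronasal organ is a tube in the nasal septum lined by a sensory epithelium on one side and a non-sensory epithelium on the other.

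The files give each model an Ensembl identifier and no symbol. The RefSeq gene table used for names (GRCr8) lists 27 protein-coding keratin symbols on chromosome 10, 27 on chromosome 7 and 25 keratin-associated protein symbols on chromosome 10, but holds 0 Ensembl identifiers, so that 0 of the 111 models could be matched to a symbol. No model is therefore called by a keratin name, no marker list could be read, and the windows may hold genes that are not keratins. The exon structure, which the choice of models did not use, is the property of the label that the files can show. Among models with at least 5 exon blocks, the most common number was 8 in the type I region and 9 in the type II region. Because these numbers were picked from the same models, their shares describe the regions and test nothing. On chromosome 10, 15 of 80 models (18.8%) had 8 blocks, against 3.48% of all models. On chromosome 7, 12 of 31 models (38.7%) had 9 blocks, against 3.30% of all models. Single-exon models numbered 35 of 80 on chromosome 10 and 0 of 31 on chromosome 7, against 28.2% of all models.

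The libraries held 64085829 (rat 1) to 74924005 (rat 2) counts. Pairs of libraries correlated at 0.992 to 0.999 on the scale of log2(CPM + 1), and rat 1 had the lowest mean correlation with the others (0.993, against 0.996 to 0.997). CPM is a model's count divided by its library's total and scaled to 1000000, and RPKM is CPM per 1000 bases of the model's exons. Rat 1 stood apart in the keratin regions, and values are given below with and without it.

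The 111 models fell into 4 classes. A model was called high in 1 rat where its highest rat had at least 10 counts and at least 3 times the CPM of the next highest rat. This held for 18 models, 11 on chromosome 10 and 7 on chromosome 7, and in 18 of 18 the high rat was rat 1. Of all models in the annotation, 0.709% were high in 1 rat and 0.53% were high in rat 1, and of the 17618 models with at least 10 counts in any rat 1.19% were high in 1 rat. The windows were proposed with this pattern known, so that the count describes them and tests nothing. Another 23 models had at least 10 counts in each of the 7 rats without being high in 1 (10 on chromosome 10 and 13 on chromosome 7), against 53.8% of all models. A further 8 (7.21%) reached 10 counts in some rats, against 4.93% of all models. The remaining 62 stayed below 10 counts in every rat, as did 40.5% of all models. Of these 62, 37 had 0 counts throughout (33.3% of the 111), against 6150 models of the annotation (20.8%). At least 10 counts in at least 4 rats, called detected here, were found for 18 of 80 type I region models and 20 of 31 type II region models, against 56.3% of all models.

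The members high in rat 1 raised the summed level of both regions there. The 11 such models of the type I region summed to 1222 CPM in rat 1, against 78.2 to 121 CPM in rats 2 to 7 (median 94.3), a 13.0-fold difference from that median. The 7 of the type II region summed to 727 CPM in rat 1, against 21.1 to 30.5 CPM in the others (median 24.5), a 29.7-fold difference. Rat 1 overlapped with no other rat in either sum, which the class rule of at least 3 times the next rat makes certain. The 23 models found in all rats exclude by rule any model high in 1 rat, so that their contrast with the class above is set by the split and is no finding. In the type I region they summed to 497 CPM in rat 1 and 430 to 496 CPM in the others, and in the type II region to 1200 CPM in rat 1 and 1195 to 1341 CPM in the others. Models high in rat 1 thus made up 53.4% of the CPM of all 111 members in rat 1, against 5.58% to 8.25% elsewhere.

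**Figure D1:**
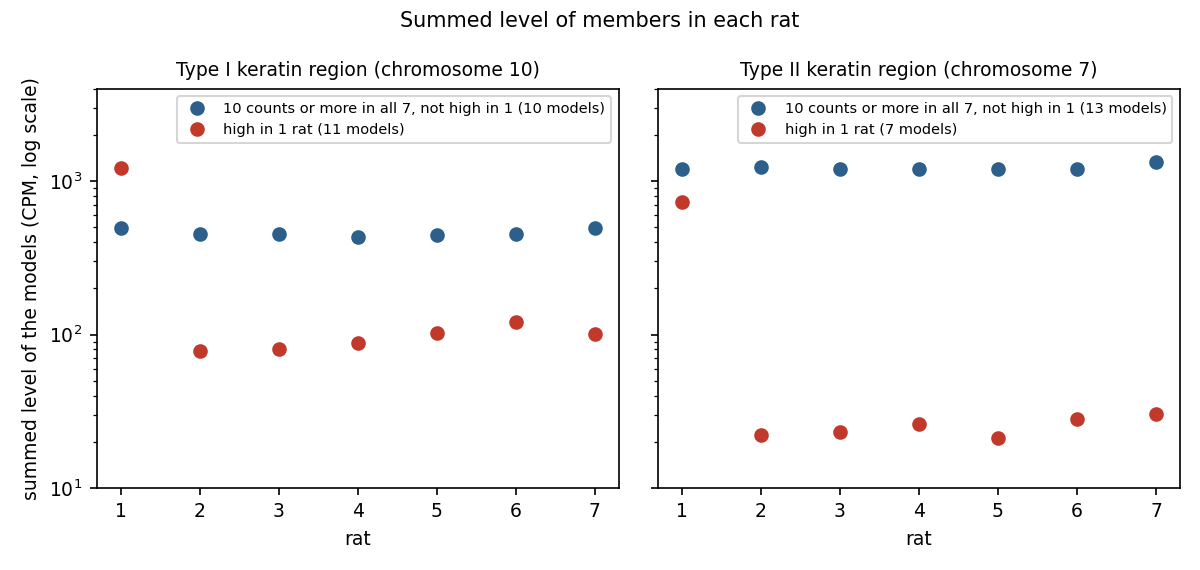
Summed level in CPM (log scale) of members in each of the 7 rats, for the type I region (left) and the type II region (right), with 1 point per rat and class. The models high in 1 rat reach 1222 and 727 CPM in rat 1 and stay at or below 121 and 30.5 CPM in rats 2 to 7, while the models found in all rats stay between 430 and 497 CPM and between 1195 and 1341 CPM.

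As a share of all counts, the type I region took 0.0718% ± 0.0442 and the type II region 0.135% ± 0.0261 (SD, n = 7). Without rat 1 these were 0.0552% ± 0.00299 and 0.125% ± 0.00600 (SD, n = 6). In rat 1 alone the shares were 0.172% (Wilson 95% interval 0.171% to 0.173%) and 0.193% (0.192% to 0.194%). These intervals cover counting error only. The ratio of type I to type II summed CPM was 0.891 in rat 1 and 0.423 to 0.470 in the others. Among the models high in rat 1 it was 1.68 in rat 1 and 3.30 to 4.83 in the others. In rats 2 to 7 most of the type I sum of that class, 78.2 to 121 CPM, was ENSRNOG00000014099, at 54.9 to 86.5 CPM. The ratio without this model was not computed, so that its difference between rats is not read as one between the regions.

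Models high in 1 rat were joined into a stretch where no more than 300 kb lay between them, so that each stretch begins and ends at such a model. The shares of models within stretches are thus raised by this rule and test nothing. By it the type I models high in rat 1 lay in 2 stretches of chromosome 10. The distal stretch, from 89057240 to 89199727 (142 kb), held 9 models, of which 7 were high in rat 1, 1 was found in all rats and 1 had under 10 counts in every rat. ENSRNOG00000014070 (89057240 to 89061150, minus strand, 8 exon blocks) had a lowest value of 0.324 CPM, a median of 0.579 CPM and a highest value of 294 CPM over the 7 rats. The highest value was rat 1, which stood 385-fold above the next highest rat, and the other 6 rats all lay under 1 CPM. Its neighbour ENSRNOG00000014099 (89071920 to 89075732, 8 blocks) had the highest level in rat 1 of all members high in 1 rat, with 54.9, 71.2 and 412 CPM as lowest, median and highest. This model was also well expressed elsewhere: rat 1 was 4.77 times the next highest rat. On a per-length scale it had 249 RPKM in rat 1 and a median of 41.7 RPKM in the others, and ENSRNOG00000014070 had 223 RPKM against 0.430 RPKM. The pair reached similar levels in rat 1 from very different levels in the other rats. Counts of both held fractions of reads that mapped to more than 1 place, so that shared reads cannot be told from separate rises.

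ENSRNOG00000014233 (89080953 to 89085670, 6 blocks), 5.22 kb beyond ENSRNOG00000014099 on the same strand, showed no such rise. Its CPM was 102 at the lowest, 110 at the median and 128 at the highest, and rat 1 was 0.928 times the median of the others. Rat 1 was the lowest in CPM, but rat 3 was the lowest with TMM factors, DESeq2 size factors or a total without the 10 most abundant models. It had the highest level per length of the type I region models found in all rats, 81.0 ± 7.16 RPKM (SD, n = 7).

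Further along, 5 neighbouring models from 89144357 to 89199727 were all high in rat 1. ENSRNOG00000026371 (89185099 to 89189816, 10 blocks) had 6.65, 8.94 and 254 CPM as lowest, median and highest, with rat 1 27.2-fold above the next rat. ENSRNOG00000003899 (89144357 to 89148415, 8 blocks) had 11.3, 16.1 and 134 CPM, with a 5.97-fold gap. ENSRNOG00000034087 (89191771 to 89199727, 8 blocks) was low throughout, with 0.494, 0.668 and 4.81 CPM. In each of these 3 models the other 6 rats lay below rat 1 without overlap, as the class rule requires. For the remaining pair the other rats held too few counts for a fold. ENSRNOG00000014441 (89175449 to 89178168, 8 blocks) had 1566 counts in rat 1 and 1 to 4.5 in the others, and ENSRNOG00000042875 (89167849 to 89170728, 8 blocks) had 214.5 counts in rat 1 and 0 to 1.5 in the others.

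The proximal stretch, from 88183170 to 88379884 (197 kb), held 8 models, of which 4 were high in rat 1. ENSRNOG00000030170 (88288620 to 88292615, 8 blocks) was the only one of these above 10 CPM in any rat, with 0.534, 0.934 and 93.3 CPM as lowest, median and highest. Rat 1 was 79.2-fold above the next rat. Its counts were whole numbers in every rat, with no fraction of a read shared with another place. ENSRNOG00000011986 (88321126 to 88328759, 9 blocks) had 0.386, 0.475 and 2.50 CPM and also whole counts. ENSRNOG00000027139 (88335894 to 88379884) had 27 counts in rat 1 and 1 to 8 in the others, and ENSRNOG00000010970 (88183170 to 88186201) had 11 counts in rat 1 and 0 to 1 in the others. The last 2 models sit just above the minimum and say little at this depth.

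On chromosome 7 all 7 models high in rat 1 lay between 140309970 and 140655441 (345 kb), in a stretch of 12 models. ENSRNOG00000032332 (140622632 to 140644116, minus strand, 13 blocks) had 1.02, 1.23 and 261 CPM as lowest, median and highest, with rat 1 141-fold above the next rat. ENSRNOG00000031785 (140582232 to 140590180, 9 blocks) had 0.352, 0.416 and 160.0 CPM, with a 338-fold gap. ENSRNOG00000024909 (140648742 to 140655441, 12 blocks) had 1692 counts in rat 1 and 2 to 5 in the others. These 3 consecutive models reached 122, 91.6 and 11 RPKM in rat 1.

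The proximal 3 models of that stretch were expressed in every rat. ENSRNOG00000009160 (140339652 to 140376264, 14 blocks) had 14.4, 19.7 and 210 CPM, with rat 1 9.13-fold above the next rat. ENSRNOG00000043203 (140320625 to 140329260, 9 blocks) had 2.85, 4.0 and 48.8 CPM, with a 10.4-fold gap, and ENSRNOG00000009105 (140309970 to 140318610, 9 blocks) had 0.636, 0.984 and 11.4 CPM, with a 9.52-fold gap. The 3 folds lay between 9.13 and 10.4. Their counts held fractions of reads that mapped to more than 1 place, so that shared reads cannot be told from separate rises. ENSRNOG00000028996 (140540962 to 140546186, 9 blocks) had 0.148, 0.185 and 10.2 CPM, and rat 1 was 22.2-fold above the next rat.

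**Figure D2:**
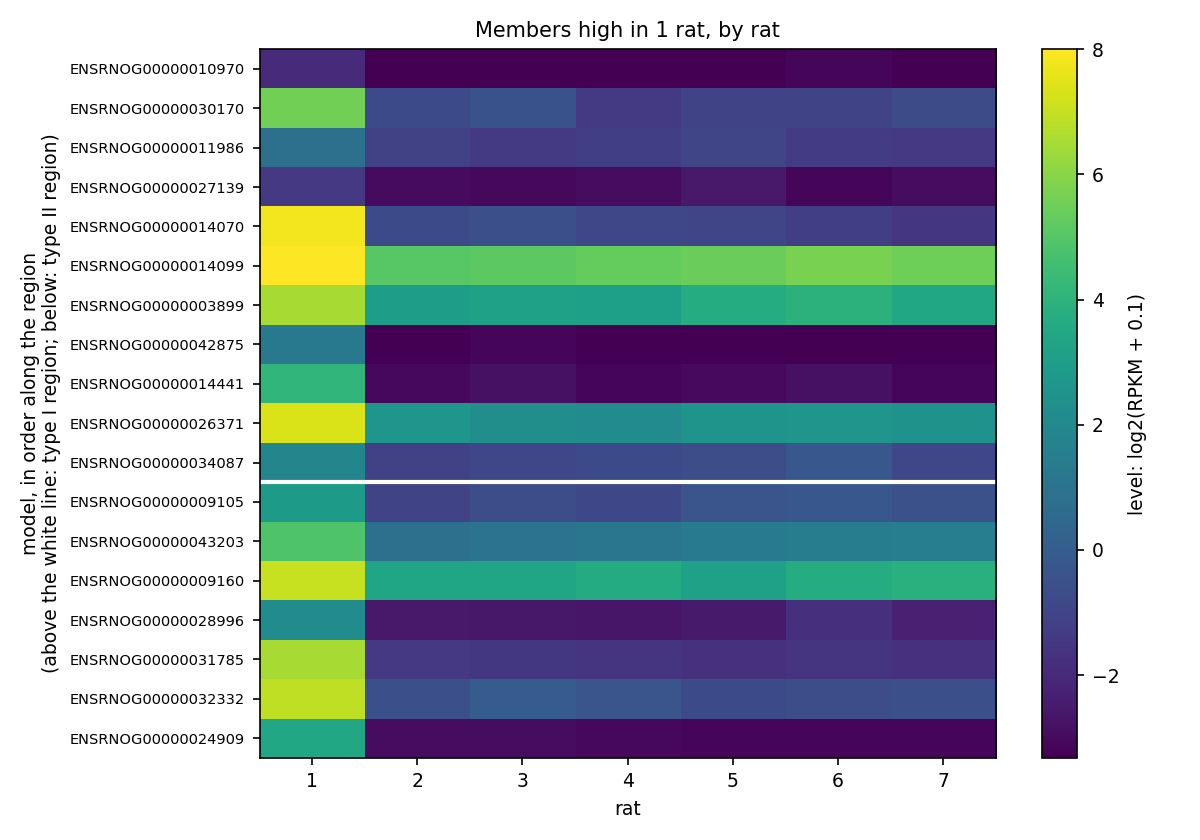
Level of the 18 members high in 1 rat in each of the 7 rats, as log2(RPKM + 0.1) by colour, with models in order along each region and a white line between the type I (above) and type II (below) regions. Column 1, rat 1, is the brightest in every row, as the class rule requires. The rows differ in columns 2 to 7, from ENSRNOG00000014099 at a median of 41.7 RPKM to ENSRNOG00000042875 at a median of 0 RPKM.

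Over these 18 models, 6 had a median of at least 1 CPM in the other 6 rats and 12 had less. In 13 of 18 every other rat had at least 10 counts, and in 5 every other rat had fewer. The next highest rat was rat 6 for 7 models, rat 3 for 5, and rats 2, 5 and 7 for 2 each, so that no other rat was next throughout. The fold of rat 1 over the next rat ran from 4.09 (ENSRNOG00000011986) to 385 (ENSRNOG00000014070) in the 13 models that allowed one. Just outside the threshold of 3 was ENSRNOG00000025994 (chromosome 7, 140096091 to 140115890), with a fold of 2.80 and 15.3 ± 9.42 CPM (SD, n = 7), followed by ENSRNOG00000030876 at 2.08. Just inside were ENSRNOG00000027139, at 3.71 with only 8 counts in the next rat, and ENSRNOG00000011986, at 4.09. All 18 were on the minus strand, as were 68 of the 80 type I region models and 20 of the 31 type II region models. Only 4 of the 18, all on chromosome 10, had whole counts in every rat.

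**Figure D3:**
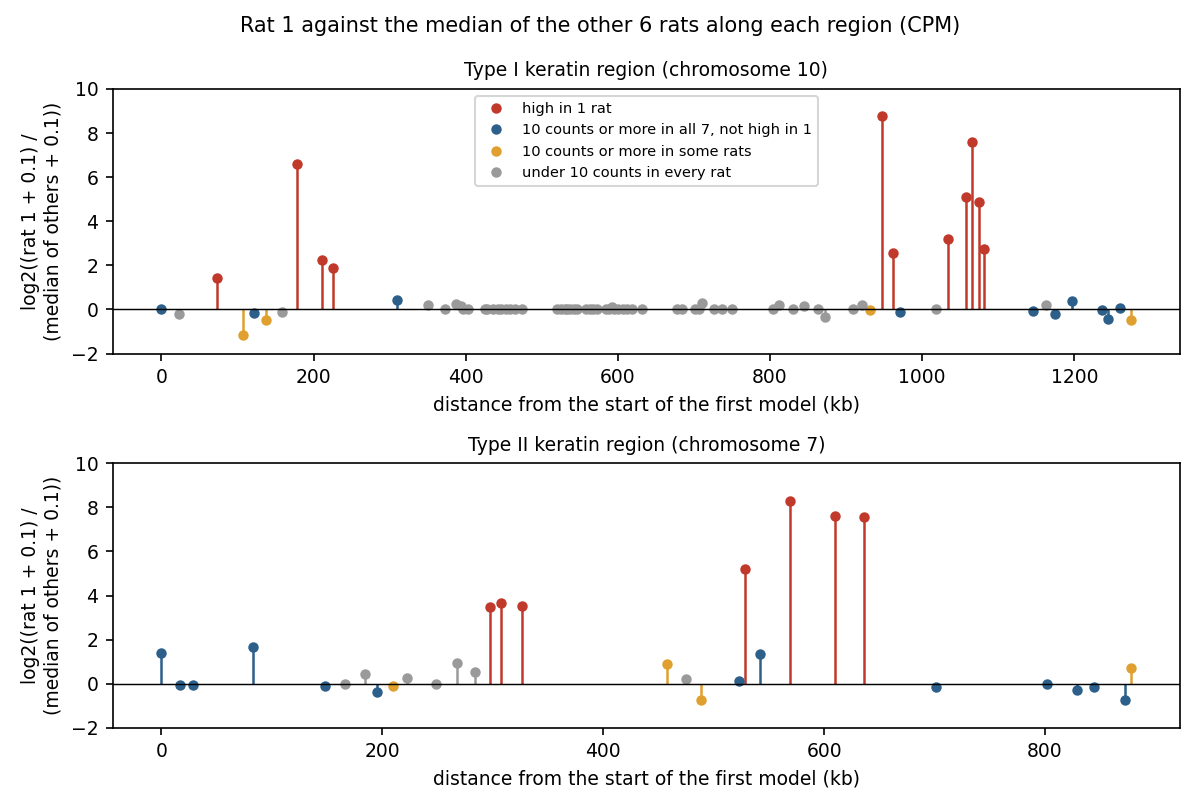
Log2 of rat 1 over the median of the other 6 rats (CPM + 0.1) for each member, against its distance in kb from the start of the first model of its region, for the type I region (top) and the type II region (bottom), with colours for the 4 classes. The models high in 1 rat, in red, lie in 2 stretches of the type I region, on either side of a long run of models near 0, and in 1 stretch of the type II region.

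Between the 2 type I stretches lay the longest run of models under 10 counts. It held 51 neighbouring models from 88460258 to 89034686 (574 kb), none of which reached 10 counts in any rat. Of these, 35 had 0 counts in all rats, and the highest count of any model in any rat was 5. The run summed to 88.5 counts over the 7 libraries together. It included all 35 single-exon models of the region and models of 135 to 2311 bases. A count of 0 in a library allows up to 3 counts. For the 35 models with 0 counts a very low level is therefore not resolved at this depth. The other models of the run had some counts but were not detected. On chromosome 7 the longest such run was 4 models, from 140235288 to 140307411.

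Among the 23 models found in all rats, the highest level per length was that of ENSRNOG00000009779 (chromosome 7, 140713910 to 140721263, minus strand, 9 blocks), at 399 ± 31.8 RPKM (SD, n = 7). Its CPM ran from 621 at the lowest to 688 at the median and 781 at the highest. Rat 1 was the lowest in CPM, and rat 6 under each of the 3 other scalings. It took 56.1% ± 2.82 (SD, n = 7) of the CPM of the type II region models found in all rats. It lies 58.5 kb beyond ENSRNOG00000024909, the model with 1692 counts in rat 1 against 2 to 5 elsewhere. ENSRNOG00000008057 (140160829 to 140175532, plus strand, 9 blocks) had 75.4 ± 7.27 RPKM, and ENSRNOG00000010103 (140814663 to 140836482, 15 blocks) had 60.8 ± 1.35 RPKM (SD, n = 7 each). The RPKM of the 3 models did not overlap between rats.

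ENSRNOG00000007607 (140012807 to 140020587, plus strand, 7 blocks) varied most of the 5 highest type II region models found in all rats. Its CPM was 26.9 at the lowest, 34.9 at the median and 90.3 at the highest. Rat 1 was the highest, and rat 6 followed at 69.6 CPM, so that its pattern was not that of 1 rat. ENSRNOG00000010977 (140885376 to 140890043, 4 blocks) went the other way, with 11, 16.7 and 21.7 CPM and rat 1 the lowest, at 0.600 times the median of the others.

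In the type I region the next highest levels per length among models found in all rats were those of ENSRNOG00000011907 (88420780 to 88436791, minus strand, 8 blocks), at 58.9 ± 7.40 RPKM, ENSRNOG00000033765 (89255651 to 89257940, plus strand, 4 blocks), at 45.5 ± 3.19 RPKM, and ENSRNOG00000015380 (89307940 to 89335556, minus strand, 16 blocks), at 36.6 ± 4.36 RPKM (SD, n = 7 each). ENSRNOG00000011907 had 68.3, 71.4 and 94.9 CPM as lowest, median and highest, and ENSRNOG00000015380 had 117, 128 and 164 CPM. In both rat 1 was the highest, 1.23 times the next rat. ENSRNOG00000010676 (88110488 to 88127686, minus strand, 11 blocks), the first model of the region, had 29.6 ± 1.57 RPKM (SD, n = 7), with 30.2, 33.5 and 34.8 CPM.

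Rat 1 and the other rats were close for most of this class, which by rule holds no model high in 1 rat. In 19 of 23 models rat 1 lay within 1.5 times the median of the other 6, in 3 it lay above that (ENSRNOG00000025994, ENSRNOG00000036865 and ENSRNOG00000007607) and in 1 below (ENSRNOG00000010977). The share within 1.5 times over all models of the same class was not computed, so that the count of 19 describes these members only. The median log2 difference of rat 1 from the median of the others was -0.07 over the 23. It was -0.10 over the 15948 models of the annotation in the same class and -0.10 over all 16670 detected models. In CPM rat 7 was the highest rat in 10 of the 23 and rat 1 in 7, an order that depends on the scaling: with TMM factors rat 7 was highest in 4, rat 6 in 6 and rat 1 in 9. The spread between rats, as the biological coefficient of variation (the square root of edgeR's tagwise dispersion over all detected models), had a median of 22.5% for the 38 detected members, against 10.5% for all 16670 detected models. Without rat 1 these were 13.2% and 8.67%. The 38 include 13 models high in rat 1, in windows proposed with these CPM known, so that the comparison is a description and tests nothing. For the 23, from which models high in 1 rat had been removed, the median was 10.5% with rat 1 and 7.92% without it. For the 13 detected models high in rat 1 the median was 96.8% with rat 1 and 19.1% without it.

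**Figure D4:**
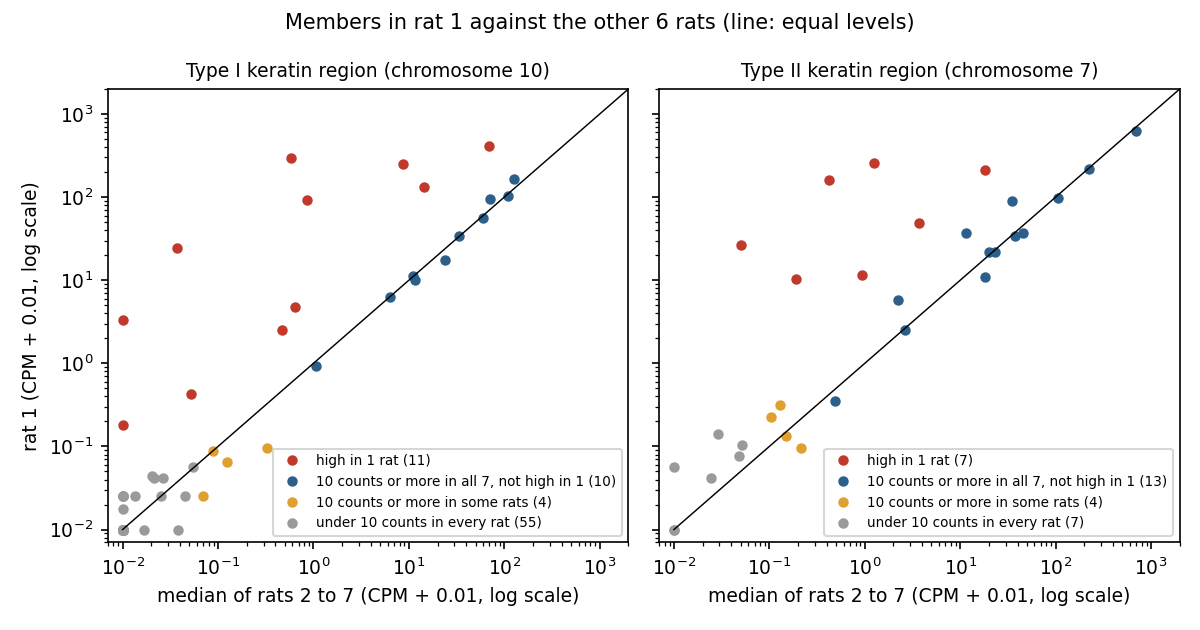
Level of each member in rat 1 (CPM + 0.01, log scale) against its median in rats 2 to 7 (same scale), for the type I region (left) and the type II region (right), with colours for the 4 classes and a line at equal levels. Of the 23 models found in all rats 19 lie within 1.5 times of the line, 3 above and 1 below that. The 18 models high in 1 rat lie above it at every level of the other rats, as the class rule requires.

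The 8 models with at least 10 counts in some rats were low, with at most 33 counts in a rat. ENSRNOG00000011196 (chromosome 10, 88217581 to 88224858, 8 blocks) had 5.5 counts in rat 1 and 16 to 28 in the others, and ENSRNOG00000009563 (chromosome 7, 140500902 to 140507590, 10 blocks) had 5.5 to 33 counts. Rat 1 was the lowest for both. In ENSRNOG00000030876 (chromosome 7, 140470238 to 140480408) rat 1 was instead the highest, with 19.5 counts against 4 to 10.3 in the others. All 3 lay inside the stretches that hold the models high in rat 1.

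Whether the regions rise and fall together across rats was asked of the summed log2 CPM. Because rat 1 stood apart, no value over all 7 rats is given for sums that hold the models high in it. Over the models found in all rats, Pearson's r between the regions was 0.583 over 7 rats (exact permutation p = 0.161, adjusted 0.242) and Spearman's rho 0.607 (exact permutation p = 0.167, adjusted 0.363). Without the 2 rats farthest from the median, rats 1 and 7, r was 0.418 (5 rats). Over the models high in rat 1, r among the other 6 rats was 0.519 (exact permutation p = 0.279, adjusted 0.279) and rho 0.314 (exact permutation p = 0.564, adjusted 0.564), and r was 0.184 without rats 2 and 6. Over all members, r among the other 6 rats was 0.688 (exact permutation p = 0.0792, adjusted 0.237) and rho 0.600 (exact permutation p = 0.242, adjusted 0.363), and r was 0.0046 without rats 6 and 7. The tests were two-sided and adjusted by Benjamini-Hochberg over the 3 relations. None passed the threshold of 0.05. In CPM the first and the last rest on rat 7, without which r was 0.062 and -0.114. Under other scalings these 2 values moved in opposite directions. With TMM factors the first was 0.755 and the last 0.471 (exact permutation, adjusted p = 0.260 and 0.342). With DESeq2 size factors they were 0.799 and 0.462 (exact permutation, adjusted p = 0.0917 and 0.339).

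Rat 1 differed from the other rats outside the keratin regions as well. Of the 210 models of the whole annotation that were high in 1 rat, 157 were high in rat 1, 24 in rat 6, 19 in rat 5 and 1 to 5 in each of the other rats. The keratin regions supplied 18 of the 157 and 0 of the 53 in other rats. They hold 111 of the 29630 models, a share so small that 0 of 53 says nothing about them. The members led by level: the 7 models with the highest CPM in rat 1 among the 157 were all members, as were 8 of the 10 highest, and the 18 members held 55.2% of the CPM that the 157 had in rat 1. The windows were proposed with these CPM known, so that this order and share are a description. Only part of the models high in rat 1 are thus keratin region models. With gene names not paired to identifiers, whether the 157 hold markers of another cell type was not tested.

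**Figure D5:**
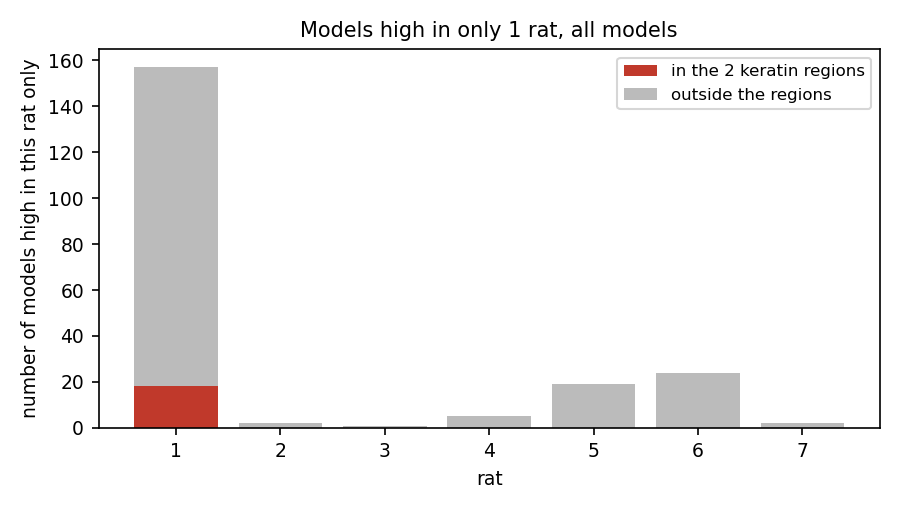
Number of models of the whole annotation that are high in only 1 rat, by rat, with those of the 2 keratin regions in red and those elsewhere in grey. Rat 1 holds 157 models, 18 of them in the keratin regions, and the other rats hold 1 to 24, none in the keratin regions. These regions hold 111 of the 29630 models.

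Outside the keratin regions, the densest pair of adjacent windows of 1 Mb was on chromosome 2 from 185 to 187 Mb, where 12 of 48 models were high in rat 1. These 12 summed to 277 CPM in rat 1, against 3.14 to 4.74 CPM elsewhere (median 3.75). The models outside the regions whose log2(CPM + 0.1) over the 7 rats was most like the summed members high in rat 1 were ENSRNOG00000004188 (chromosome 6, 23095907 to 23096652; Pearson's r 0.998), ENSRNOG00000033153 (chromosome 5, 151479150 to 151480388; 0.998) and ENSRNOG00000011925 (chromosome 8, 81382899 to 81459624; 0.997), followed by ENSRNOG00000028865 on chromosome 2 (0.996) and ENSRNOG00000010076 on chromosome 13 (0.996). ENSRNOG00000033153 had 53.8 CPM in rat 1 and 3.11 to 4.46 CPM in the others. ENSRNOG00000010076 had 88.6 CPM in rat 1 and 7.42 to 10.5 CPM in the others. ENSRNOG00000004188 had 4.52 CPM against 0.280 to 0.443 CPM, and ENSRNOG00000028865 0.858 CPM against 0 to 0.0309 CPM. ENSRNOG00000011925 had 15.7 CPM in rat 1 and 6.89 to 7.82 CPM in the others, and so was not high in 1 rat. Pearson's r does not measure the size of a rise. Of 17569 models compared, 40 had an r over 0.99, a value that rests on rat 1. For the summed members found in all rats the most alike was ENSRNOG00000005402 on chromosome X (r 0.986), at 2.38 ± 0.271 CPM (SD, n = 7), followed by ENSRNOG00000019950 on chromosome 1 (0.981), ENSRNOG00000004784 on chromosome 3 (0.978), and ENSRNOG00000020823 (0.978) and ENSRNOG00000012074 (0.976) on chromosome 1. These are the highest of 17569 values, each over only 7 rats.

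At the edges of the windows, the first type I region model, ENSRNOG00000010676, had 32.9 ± 1.75 CPM and the last model before the window 1.73 ± 0.443 CPM (ENSRNOG00000010665). The last inside, ENSRNOG00000016749, had 0.0672 ± 0.0402 CPM and the first beyond 30.7 ± 1.49 CPM (ENSRNOG00000016921). For the type II region the first inside was ENSRNOG00000007607 at 46.6 ± 23.9 CPM and the last before it ENSRNOG00000007346 at 2.66 ± 0.423 CPM. The last inside was ENSRNOG00000011163 at 0.151 ± 0.0875 CPM and the first beyond ENSRNOG00000011573 at 27.8 ± 1.88 CPM (SD, n = 7 each).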

How the data were processed

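PolyA-selected RNA was sequenced as stranded single-end reads, per the labels' protocols. The submitters' processing notes name STAR 2.7.1a and featureCounts 1.6.5, whereas the headers name featureCounts 1.6.3. The authors deposited expected counts for models of RGSC3.4 (Ensembl release 67 with their own additions, per the file headers). Exon reads were counted with strand setting 2 and a minimum mapping quality of 0, and multimapping reads were split into fractions. Near-identical keratin copies can therefore share reads. Model lengths came from the same deposited files.

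CPM and RPKM were computed here. The rule for named models was the 5 highest by mean RPKM in each region among those found in all rats, up to 8 models high in 1 rat per region by CPM there, and the 5 models elsewhere most like each class; other models were named after their values were seen. The members, classes and tests were chosen with earlier results of these data known. Dispersions came from edgeR 4.0.16 (R 4.3.3) on rounded counts, with TMM factors and no covariate, and DESeq2 1.42.0 gave size factors as an alternative. Correlations were tested by exact permutation over pairings. Python 3.11.15, numpy 2.4.6, pandas 2.3.3, scipy 1.17.1 and matplotlib 3.10.9 did the rest. The class rule and the dispersion step were tested on simulated data. In each of 21 pairs of libraries, chi-square over its degrees of freedom was 11.9 to 111, and no library was treated as a duplicate. Each library came from a separate rat, per the labels. Reads carried no molecular identifiers in the sources used here, so that counting intervals may be too narrow.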

Additional observations from a re-analysis of the deposited data

Results flagged for a closer look

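In 28 of 47 values examined (6 sums and the 41 models high in 1 rat or found in all rats), 1 rat was separated from the rest, and in 26 of these it was rat 1, as the highest. Chance flags about 1 in 20 such values, and the models high in 1 rat were chosen by a rule that makes this nearly certain, so that their flags are a description. The gap between the rat and its nearest neighbour is given as a share of the whole range. It was 0.93 for the summed CPM of the type I region and 0.78 for the type II region, and 0.96 and 0.99 for the sums of their models high in 1 rat. The single models high in rat 1 had gaps of 0.76 (ENSRNOG00000027139), 0.88 (ENSRNOG00000034087), 0.89 (ENSRNOG00000011986), 0.91 (ENSRNOG00000010970, ENSRNOG00000014099 and ENSRNOG00000003899), 0.95 (ENSRNOG00000009105), 0.96 (ENSRNOG00000043203 and ENSRNOG00000009160), 0.97 (ENSRNOG00000028996), 0.99 (ENSRNOG00000030170, ENSRNOG00000042875 and ENSRNOG00000026371) and 1.00 (ENSRNOG00000014070, ENSRNOG00000014441, ENSRNOG00000031785, ENSRNOG00000032332 and ENSRNOG00000024909). Among the 23 models found in all rats, rat 1 stood above the others in ENSRNOG00000025994 (0.90), ENSRNOG00000036865 (0.68), ENSRNOG00000011907 (0.66) and ENSRNOG00000015380 (0.65), at 36.5, 5.85, 94.9 and 164 CPM, and it did so under each of the 3 other scalings. Rat 7 stood above the others in ENSRNOG00000010588 (0.58) and in the summed CPM of type II region models found in all rats (0.68, at 1341 CPM). Neither gap held under the other scalings: with TMM factors the sum was 1222 in rat 7 and highest in rat 1, at 1270. The sum of type I region models found in all rats did not stand apart in CPM, but with TMM factors it did so in rat 1, with a gap of 0.68. In ENSRNOG00000015941, found in all rats, no rat stood apart in CPM (0.48). Under each of the 3 other scalings rat 1 stood below the other rats in this model, with gaps of 0.65 to 0.67.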

How the results depend on the processing

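No paired analysis was possible because all rats form 1 group. With whole counts only, 12 members were detected against 38, 10 were found in all rats against 23 and 4 were high in 1 rat against 18, because this leaves fewer models; the regions then took 0.0268% and 0.00585% of counts. Without the 10 most abundant models in the total, the shares were 0.134% and 0.249%, and on counts divided by length the type II share was 0.0772%; the smaller total and the division make these differences. Leaving out each rat in turn, detected members numbered 37 to 38, members found in all rats 23 to 37 and members high in 1 rat 0 to 18. The count of 0 and that of 37 arose without rat 1, when 66 models of the whole annotation were still high in 1 of the 6 other rats. The shares then lay at 0.0552% to 0.0752% and 0.125% to 0.137%, the variation of members found in all rats at 7.92% to 11.1%, and r between the regions at 0.062 (without rat 7) to 0.906 (without rat 1; found in all rats), 0.352 to 0.816 (high in rat 1, other rats) and -0.114 to 0.882 (all members, other rats), with the reversal to -0.114 without rat 7 (exact permutation p = 0.892). With whole counts only, no type II region model high in 1 rat was left, so that this class gave no correlation. The same 18 members were high in rat 1 under TMM factors, DESeq2 size factors and the total without the 10 most abundant models. The mean summed CPM of members high in 1 rat was 256 and 125 in the 2 regions, 95 and 25.1 without rat 1, 15.0 and 0 with whole counts only, and 485 and 239 without the 10 most abundant models in the total; the spread over rats, with rat 1 included, is wider than these shifts. Of 176 alternative values 1 reversed and 11 others were counted as moved. Shares and sums were judged by the spread between rats, counts of members by 1.5 times, and the variation by its leave-one-out values. Correlations counted as unmoved unless the sign or the call at 0.05 changed. Falls in r from 0.583 to 0.062 and from 0.688 to 0.0046 were thus not counted. Nor were rises from 0.583 to 0.906 without rat 1, and from 0.688 to 0.955 without the most abundant member of each region. Folds of single models only had to keep to the class threshold. The tally therefore does not measure how far correlations and folds shifted. The comparison with the median of the other rats, the means without rat 1 and the order of rats under other scalings were chosen after seeing the data. Models under 10 counts in every rat are not resolved at this depth.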
